A study of Mus musculus with 20 samples.

Results

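Distal H3K4me1 regions that were present with Tet2 and absent without it were examined in lineage-negative (Lin-) bone marrow cells of mice. The H3K4me1 peak lists of 4 genotypes were merged into 136477 regions, of which 79071 were autosomal and more than 3000 bp from every annotated transcript start. A region was kept when it held a peak in the WT and Ep300Δ/Δ lists and none in the Tet2-/- or Ep300Δ/ΔTet2-/- list, which left 2200 regions. These are called lost regions here, where lost means only that no peak was listed. They were chosen by their H3K4me1 peak calls, so their H3K4me1 values are descriptions and carry no test.

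WT mice carried floxed Ep300 (Ep300 fl/fl) without Cre, Ep300Δ/Δ mice carried Mx1-Cre with Ep300 fl/fl, Tet2-/- mice carried Ep300 fl/fl on a Tet2-null background, and Ep300Δ/ΔTet2-/- mice carried Mx1-Cre, Ep300 fl/fl and Tet2-/-. All mice, controls included, were on a C57BL/6 background and received 3 doses of poly(I:C) at 10 μg/g at 6 to 8 weeks of age, which induces the interferon-responsive Mx1-Cre. Mx1-Cre also acts outside blood cells. Chromatin of Lin- cells, with a purity over 80%, was immunoprecipitated for H3K4me1, H3K27ac and H3K4me3, with 1 library per genotype and mark. Without a replicate there was no spread between mice, no test between genotypes could be made, and the intervals below are exact Clopper-Pearson 95% intervals for counting error only. The sources do not say how many mice were pooled in a library.

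H3K4me1 marks enhancers whether they are active or only primed, H3K27ac marks active enhancers and promoters, and H3K4me3 lies mainly at promoters. TET2 oxidizes 5-methylcytosine at CpG sites, which opens a route to demethylation, and it is frequently mutated in human myeloid disease. p300 is a histone acetyltransferase that writes H3K27ac. Lin- cells are what remains of the marrow after cells with markers of mature lineages are taken out.

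The labelled cell type was checked on promoters, where a marker counted when an H3K4me3 peak lay within 1000 bp of one of its transcript starts. In each of the 4 genotypes 7 of 7 progenitor markers reported here (Kit, Cd34, Flt3, Gata2, Myb, Meis1, Tal1) counted. Of 6 mature lineage markers reported here (Cd3e, Ms4a1, Ly6g, Itgax, Cd4, Cd8a), 1 counted in Tet2-/- (Itgax) and 0 in the other 3 genotypes. Further markers of both lists are not reported here, so these counts do not cover the lists whole and do not show that mature cells were absent. In bulk chromatin, a smaller share of cells with a mark and less of the mark in each cell cannot be told apart.

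The 5 sequences below come from lost regions whose H3K27ac calls had the same presence as their H3K4me1 calls, and are shown because there a mark that did not choose the regions had the same calls. Each covers 100 bp on either side of the WT H3K4me1 summit on GRCm38 (mm10), plus strand, 5′ to 3′, from the RefSeq genome, with CpG sites in capitals and the nearest coding gene as the name.
Sgcd-nearest member, chr11:47208871-47209071: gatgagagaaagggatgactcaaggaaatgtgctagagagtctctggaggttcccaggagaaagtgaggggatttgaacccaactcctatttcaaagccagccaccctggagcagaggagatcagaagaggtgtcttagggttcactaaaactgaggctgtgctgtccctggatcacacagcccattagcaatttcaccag
Meis1-nearest member, chr11:19423876-19424076: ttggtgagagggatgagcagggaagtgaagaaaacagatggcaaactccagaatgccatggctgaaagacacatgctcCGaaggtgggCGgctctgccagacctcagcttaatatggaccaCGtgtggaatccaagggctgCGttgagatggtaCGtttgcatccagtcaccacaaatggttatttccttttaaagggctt
Nfkbiz-nearest member, chr16:55754121-55754321: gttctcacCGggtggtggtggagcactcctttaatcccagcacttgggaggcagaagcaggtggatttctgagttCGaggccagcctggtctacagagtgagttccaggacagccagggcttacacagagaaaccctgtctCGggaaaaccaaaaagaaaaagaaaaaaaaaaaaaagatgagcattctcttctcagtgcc
Rps6ka1-nearest member, chr4:133837659-133837859: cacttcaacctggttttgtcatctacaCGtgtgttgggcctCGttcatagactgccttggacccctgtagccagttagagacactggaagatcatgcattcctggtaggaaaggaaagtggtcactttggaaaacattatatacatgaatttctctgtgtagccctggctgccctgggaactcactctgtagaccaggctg
Adgrf5-nearest member, chr17:43330000-43330200: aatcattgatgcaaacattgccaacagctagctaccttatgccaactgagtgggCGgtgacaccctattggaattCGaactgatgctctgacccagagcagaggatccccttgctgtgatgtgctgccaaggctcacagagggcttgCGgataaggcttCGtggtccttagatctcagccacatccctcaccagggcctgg

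These windows held between 0 and 5 CpG sites. The window near Sgcd held none, and the Meis1 window held the most. The Sgcd window lies in an intron of Sgcd, and the other 4 are intergenic. Around all 2200 lost regions the median was 3 CpG sites per window.

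The H3K4me1 lists held 107392 peaks in WT, 90738 in Ep300Δ/Δ, 98069 in Tet2-/- and 93465 in Ep300Δ/ΔTet2-/-, and their read depth is unknown. Among the 15 possible combinations of lists, the lost regions made up 2.78% of the distal regions. The largest class held 24028 regions in all 4 lists, and 10005 regions were in the WT list alone. The mirror class, in the Tet2-/- and Ep300Δ/ΔTet2-/- lists only, held 2911 regions and is called gained here. Other pairs of lists also shared regions without sharing the Tet2 genotype. WT and Tet2-/- alone shared 5331 regions, called lost after Ep300 deletion here, and Ep300Δ/Δ and Ep300Δ/ΔTet2-/- alone shared 1549. The crossed pairs, which differ in both genes, held 1638 regions (WT and Ep300Δ/ΔTet2-/- only) and 1590 regions (Ep300Δ/Δ and Tet2-/- only). Lost regions were thus 1.34 times as many as the WT-containing crossed pair and 0.756 times as many as gained regions, and fewer than the pair of WT and Tet2-/-. The order of lost regions and crossed pairs depended on the peak threshold, because with a −log10 q of at least 5 in every list 603 lost regions stood against 816 and 908 in the crossed pairs and 3081 gained.

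**Figure D1:**
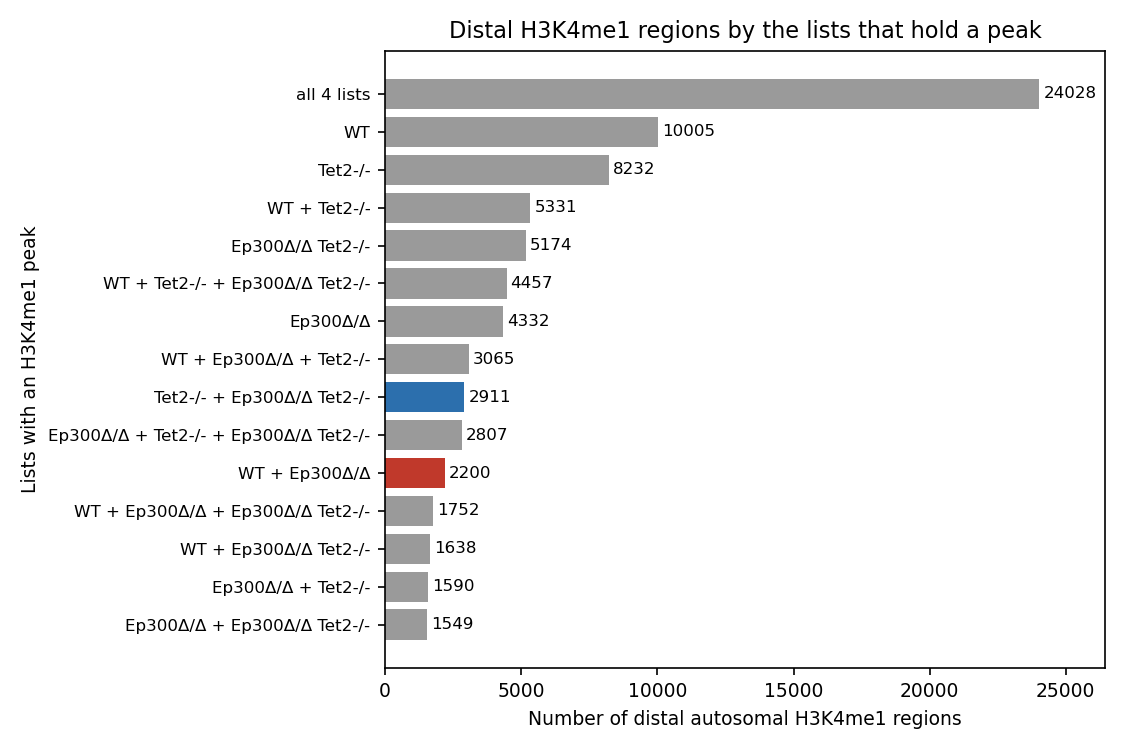
Number of distal autosomal H3K4me1 regions (x axis) for each combination of lists that held a peak (y axis), with 1 library per list. The 2200 lost regions (red) were fewer than the 2911 gained regions (blue) and more than either crossed pair, with 1638 and 1590 regions, while WT and Tet2-/- alone shared 5331.

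Of the 31045 distal regions with a peak in both WT and Ep300Δ/Δ, 7.09% were lost, a share that the rule itself sets. The same presence was found at 3917 regions before the limits on position. Of these, 34 were not on an autosome, and 1683 were autosomal but within 3000 bp of a start, with 284 overlapping one. At the edge of the distance limit, the nearest lost regions kept lay 3003, 3008 and 3021 bp from a start and the farthest ones left out lay 2997, 2986 and 2986 bp away. Their WT fold enrichments were 4.90, 4.80 and 5.33 inside the limit and 3.33, 2.60 and 5.38 outside it, and their Ep300Δ/Δ fold enrichments were 2.92, 3.13 and 5.36 inside and 4.12, 3.78 and 4.10 outside.

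The lost regions were narrow and weakly marked beside regions in all 4 lists, as were the other classes found in 2 lists. Their median width was 406 bp, against 967 bp for regions in all 4 lists. Fold enrichment over H3, the peak height that the deposited lists give, ranged from 1.78 to 11.1 in WT with a median of 4.12, and from 1.92 to 9.66 in Ep300Δ/Δ with a median of 4.04. Regions in all 4 lists had medians of 5.55 and 5.20. The crossed pairs had median widths of 378 and 387 bp, gained regions 438 bp and regions lost after Ep300 deletion 448 bp. The WT median fold was 3.98 in the WT-containing crossed pair and 4.21 in regions lost after Ep300 deletion, so neither trait was particular to lost regions. In WT 766 lost regions (34.8%) and in Ep300Δ/Δ 708 (32.2%) reached the median fold of the whole list, so most lay in its lower part. When the 31045 regions were divided into 4 equal parts by WT fold, lost regions were 0.992% of the strongest part, 4.27% and 9.55% of the middle parts and 13.6% of the weakest. The −log10 q was under the stated limit (q over 0.05) for the leading peak of 69 lost regions in WT and 197 in Ep300Δ/Δ.

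**Figure D2:**
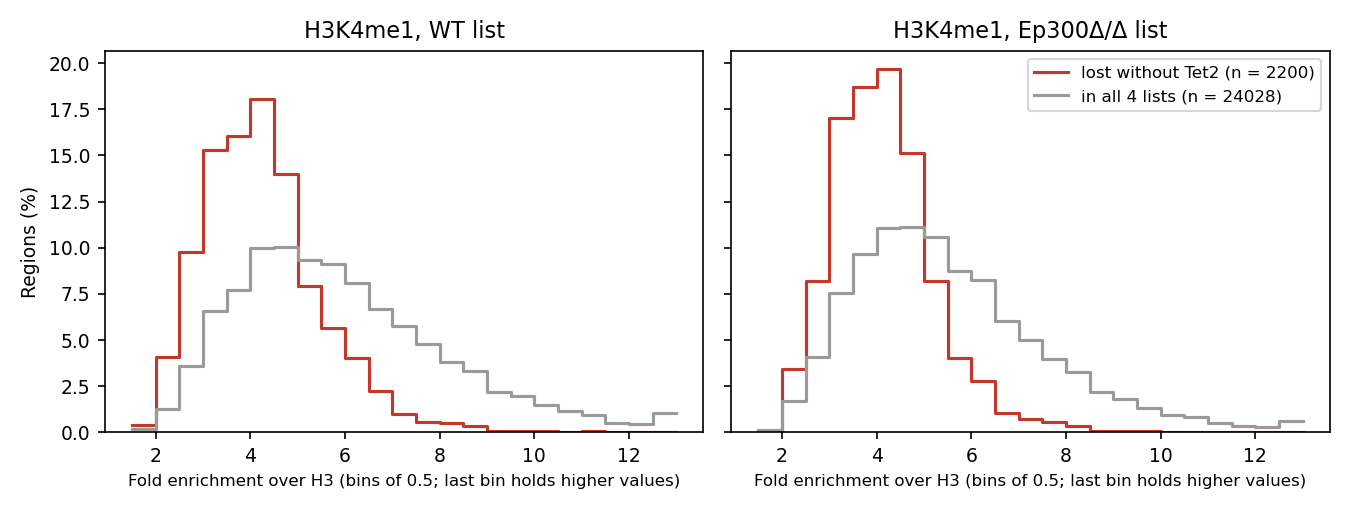
Share of regions (y axis, %) by H3K4me1 fold enrichment over H3 (x axis) in the WT list (left) and the Ep300Δ/Δ list (right), for lost regions (red) and regions in all 4 lists (gray). Lost regions sat lower, with medians of 4.12 and 4.04 against 5.55 and 5.20.

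Many lost regions lay close to an H3K4me1 peak of a Tet2-null list. The nearest H3K4me1 peak of either Tet2-null list was at a median of 0.976 kb, within 500 bp for 813 lost regions (37.0%) and within 10000 bp for 1932 (87.8%). The crossed pair of WT and Ep300Δ/ΔTet2-/- gave nearly the same distances to the lists it lacks, with a median of 0.926 kb and 40.0% within 500 bp. Gained regions were farther from the WT and Ep300Δ/Δ peaks, with a median of 1.55 kb. When peaks within 500 bp were merged first, 1340 lost regions remained. Only 268 lost regions were over 10 kb from a Tet2-null peak and 19 were over 100 kb.

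**Figure D3:**
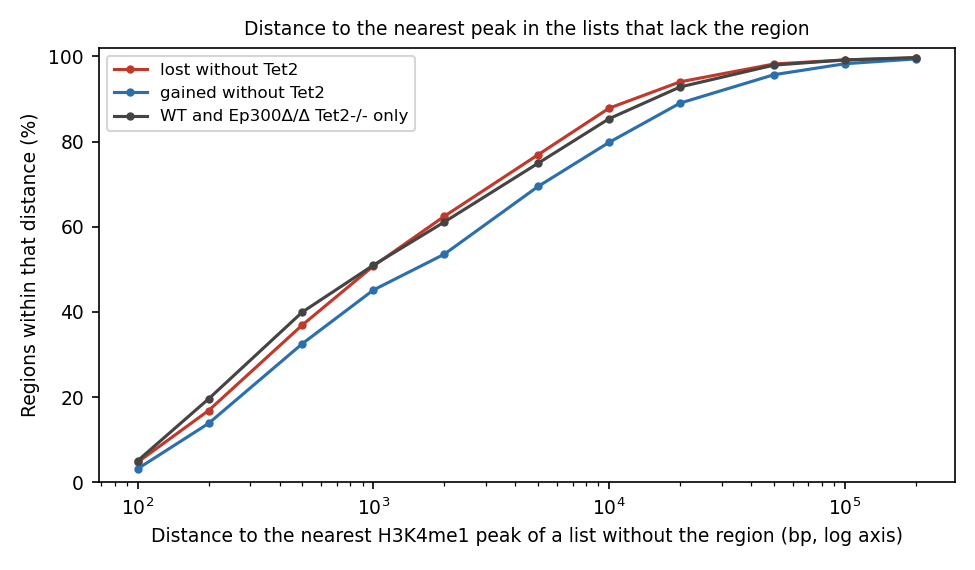
Share of regions (y axis, %) within a given distance (x axis, bp, log axis) of the nearest H3K4me1 peak of a list that lacked the region. Of the lost regions (red) 37.0% lay within 500 bp, against 40.0% of the crossed pair (dark gray) and 32.6% of the gained regions (blue).

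H3K4me3 calls, which the rule did not use, differed at the lost regions in the same direction as H3K4me1. A peak of H3K4me3 overlapped 109 lost regions in WT (4.95%, interval 4.09 to 5.95), 101 in Ep300Δ/Δ (4.59%, 3.75 to 5.55), 68 in Tet2-/- (3.09%, 2.41 to 3.90) and 69 in Ep300Δ/ΔTet2-/- (3.14%, 2.45 to 3.95). Both lists with Tet2 were above both without it, although the Tet2-null H3K4me3 lists were longer, with 27807 and 27268 peaks against 26289 and 25012. Over all 31045 distal regions of WT and Ep300Δ/Δ the shares were 12.9% in WT, 10.7% in Ep300Δ/Δ, 13.7% in Tet2-/- and 12.0% in Ep300Δ/ΔTet2-/-, so each Tet2-null list was above its partner with Tet2. Gained regions showed the opposite order, with 2.95% and 2.92% in WT and Ep300Δ/Δ and 4.26% and 4.57% in Tet2-/- and Ep300Δ/ΔTet2-/-. With the 4 lists cut to the same 25012 peaks the lost regions gave 4.73%, 4.59%, 2.86% and 2.82% in the same genotype order. The 31045 regions then gave 12.0%, 10.7%, 11.4% and 10.4%, so at equal length each Tet2-null share was below that of its partner with Tet2 there too, by less than at the lost regions, while Tet2-/- stayed above Ep300Δ/Δ. The crossed pairs also had more H3K4me3 in the lists that held their H3K4me1, by a smaller margin. The pair of WT and Ep300Δ/ΔTet2-/- had 6.11% and 6.17% there against 5.31% and 5.43%. The pair of Ep300Δ/Δ and Tet2-/- had 4.91% and 5.09% against 4.34% and 4.40%. Regions lost after Ep300 deletion had 1.58% and 1.73% in WT and Tet2-/-, which held them, against 0.975% in Ep300Δ/Δ and 1.13% in Ep300Δ/ΔTet2-/-. More H3K4me3 in the lists that held the H3K4me1 was thus not particular to lost regions.

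Of the 109 WT H3K4me3 peaks at lost regions, 51 (46.8%, interval 37.2 to 56.6) were absent from Tet2-/-, against 17.3% over all distal regions of WT and Ep300Δ/Δ. From Ep300Δ/Δ to Ep300Δ/ΔTet2-/-, 42 of 101 (41.6%, 31.9 to 51.8) were absent, against 14.1%. A like share was seen at regions lost after Ep300 deletion, where 40 of 84 WT H3K4me3 peaks (47.6%, 36.6 to 58.8) were absent from Ep300Δ/Δ. The crossed pairs gave lower shares. In the WT-containing pair 19 of 100 WT peaks (19.0%, 11.8 to 28.1) were absent from Tet2-/- and 22 of 100 from Ep300Δ/Δ. In the other pair 16 of 78 Ep300Δ/Δ peaks (20.5%) and 15 of 81 Tet2-/- peaks (18.5%) were absent from Ep300Δ/ΔTet2-/-. The complete presence of H3K4me1, in WT and Ep300Δ/Δ and in neither Tet2-null list, was shared by H3K4me3 at 26 lost regions (1.18%, 0.773 to 1.73) and reversed at 1. Over the 31045 regions, which include the lost ones, the counts were 131 and 218, so the reversed form was then the more frequent. These counts are of the uncut lists, where the Tet2-null H3K4me3 lists were the longer, and counts at equal length are not given. At gained regions the lost form was seen at 1 and the gained form at 17. The H3K4me1 and H3K4me3 lists were called against H3 as the background, and the sources do not say whether the libraries of a genotype came from the same mice.

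**Figure D4:**
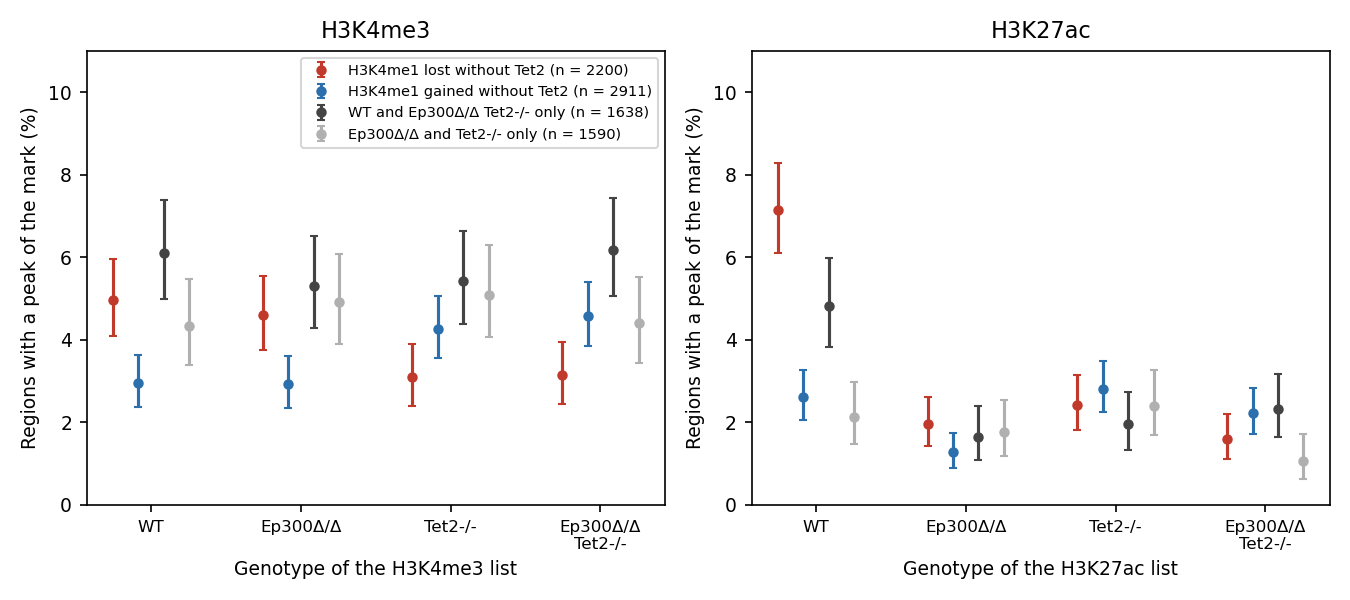
Share of regions overlapped by a peak (y axis, %) of H3K4me3 (left) or H3K27ac (right) in each genotype's list (x axis), for lost regions (red), gained regions (blue) and both crossed pairs (dark and light gray). Points are shares of 1 list and bars are exact 95% intervals. For H3K4me3 the lost regions were at 4.95% and 4.59% with Tet2 and 3.09% and 3.14% without it, while gained regions went the other way.

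The 26 regions with the same H3K4me3 presence were looked at after their values were seen, ordered by the smaller of their 2 H3K4me3 folds. The region nearest Dnajb1, a heat shock cochaperone gene, led with H3K4me3 folds of 16.2 in WT and 14.1 in Ep300Δ/Δ. An exonic region near Ctf1, which encodes the cytokine cardiotrophin, followed with 10.1 and 13.6. The region near Meis1, a homeobox regulator of stem cells, had 7.70 and 7.93. A region near the proliferation gene Mki67 had H3K4me3 folds of 7.07 and 4.53 while its H3K27ac was listed in all 4 genotypes, at 13.2, 9.44, 9.73 and 7.38. At that region the H3K4me1 and H3K4me3 calls changed and the H3K27ac call did not.

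H3K27ac was rarer at lost regions than over the distal regions of WT and Ep300Δ/Δ, and more frequent in WT than in the other classes of 2 lists compared. A peak overlapped 157 in WT (7.14%, interval 6.10 to 8.29), 43 in Ep300Δ/Δ (1.95%, 1.42 to 2.62), 53 in Tet2-/- (2.41%, 1.81 to 3.14) and 35 in Ep300Δ/ΔTet2-/- (1.59%, 1.11 to 2.21). Over the 31045 distal regions of WT and Ep300Δ/Δ the shares were 21.5%, 11.5%, 15.7% and 9.44% in that order. In WT the share was 4.82% (interval 3.84 to 5.97) in the WT-containing crossed pair, 3.73% in regions lost after Ep300 deletion, 2.61% in gained regions and 2.14% in the other crossed pair. With every list cut to 18327 peaks the WT shares of lost regions and of the WT-containing crossed pair, 2.32% (1.73 to 3.04) and 1.83% (1.24 to 2.60), had overlapping intervals. The WT list stood above the other 3, and Ep300Δ/Δ, which still had H3K4me1 at every lost region, lay between the Tet2-null lists, with overlapping intervals. The lower H3K27ac share held within these 4 parts of WT H3K4me1 fold. In the strongest part 10 of 77 lost regions (interval 6.41 to 22.6%) had WT H3K27ac against 42.8% of the others, and in the weakest 6.12% against 8.55%. The width of the regions was not held equal, for H3K27ac or for H3K4me3. Lost regions had a median width of 406 bp against 825 bp over the 31045, and a wider region can overlap a peak more often.

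Of the 157 acetylated lost regions 120 (76.4%, interval 69.0 to 82.8) had no H3K27ac peak in Tet2-/-, against 44.0% over all distal regions of WT and Ep300Δ/Δ, and 125 (79.6%) had none in Ep300Δ/Δ, against 54.0%. From Ep300Δ/Δ to Ep300Δ/ΔTet2-/- the share was 21 of 43 (48.8%, 33.3 to 64.5), against 42.6%. In the upper part of WT H3K27ac fold, divided at 5.79, 35 of 58 acetylated lost regions (60.3%) had none in Tet2-/- against 25.3% of the other regions. In the lower part it was 85 of 99 (85.9%) against 61.6%. Regions lost after Ep300 deletion, in WT and Tet2-/- only, gave a like share of 161 of 199 (80.9%) from WT to Tet2-/-, although they kept H3K4me1 there. The WT H3K27ac list was also the longest, with 29659 peaks against 18327 to 24539 in the others. With every H3K27ac list cut to 18327 peaks the lost regions gave 51 in WT, 28 in Ep300Δ/Δ, 31 in Tet2-/- and 35 in Ep300Δ/ΔTet2-/-, a smaller excess of WT.

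H3K27ac had the presence of H3K4me1, in WT and Ep300Δ/Δ only, at 7 lost regions (0.318%), and the reversed presence at none, for which the interval reaches 0.168%. Over the 31045 distal regions of WT and Ep300Δ/Δ the counts were 443 (1.43%) and 130 (0.419%), so the presence of H3K4me1 was less frequent at lost regions than there. It was rarer still in the crossed pairs (0.244% and 0.189%), gained regions (0.103%) and regions lost after Ep300 deletion (0.0750%). Among regions with H3K27ac in any list it was 3.66% of 191 lost regions and 5.25% of 8441. In the crossed pairs it was 3.96% and 3.85%, in gained regions 1.95% and in regions lost after Ep300 deletion 1.63%. The most frequent presence was WT alone, at 105 lost regions (4.77%, against 7.03% of the 31045), and 15 had H3K27ac in all 4 lists (0.682%, against 5.68%). No H3K27ac peak was listed in any genotype at 2009 lost regions (91.3%, against 72.8%), and 1924 (87.5%, against 65.8%) had neither H3K27ac nor H3K4me3 in any list. These traits were not particular to lost regions. Neither mark was listed at 88.2% and 90.7% of the crossed pairs, 91.0% of gained regions and 93.9% of regions lost after Ep300 deletion. H3K27ac was in no list at 93.8%, 95.1%, 94.7% and 95.4% in that order.

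The 7 regions, of which 6 are described here, are the only lost regions with acetylation in both genotypes that kept Tet2 and in neither that lacked it. The region chr11:47208614-47209100, in an intron of Sgcd, which encodes delta-sarcoglycan of muscle, had H3K27ac folds of 7.34 in WT and 7.15 in Ep300Δ/Δ. Its H3K4me3 folds were 6.93 and 13.4, its H3K4me1 folds 3.16 and 2.90, and its nearest Tet2-null H3K4me1 peak lay 389 kb away. The region chr11:19423533-19424481, between genes and 405 kb from the nearest Meis1 start, had H3K27ac folds of 12.1 and 6.07, H3K4me3 folds of 7.70 and 7.93 and H3K4me1 folds of 5.55 and 6.89. At these 2 regions all 3 marks were listed in WT and Ep300Δ/Δ and in neither Tet2-null list. The Ep300Δ/Δ H3K4me1 peak of the Sgcd region had a −log10 q of 1.18 (q over 0.05), under the stated limit, so its presence there rests on a weak call. A neighboring lost region, chr11:19424587-19424861, had H3K4me1 folds of 5.77 and 4.97 and H3K27ac in WT only, from the same WT peak, which spans both regions.

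The region chr16:55754052-55754551 was nearest to Nfkbiz, an inhibitor and cofactor of NF-kB, with H3K27ac folds of 6.92 and 4.44. Its H3K4me3 was listed in all 4 genotypes, at 8.87, 8.86, 11.7 and 8.03, so only the other marks were called lost. The region chr4:133837571-133837942, 23.0 kb from Rps6ka1, a kinase downstream of ERK, had H3K27ac folds of 4.16 and 4.51, and chr17:43329957-43330395 near the adhesion receptor gene Adgrf5 had 6.78 and 3.88. The region chr13:44535508-44535978, 193 kb from Jarid2, a partner of Polycomb repressive complex PRC2, had 7.98 and 3.12 and lay 192 bp from an H3K4me1 peak of Tet2-/-. Its H3K4me1 folds were 3.24 and 2.16, and the Ep300Δ/Δ peak was again under the stated limit (q over 0.05). The Jarid2 region had H3K4me3 in WT (5.97) and in both Tet2-null lists (2.46 in Tet2-/- and 4.45 in Ep300Δ/ΔTet2-/-), so it kept a mark without Tet2. The Rps6ka1 and Adgrf5 regions had H3K4me3 in no list.

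The 10 lost regions with the highest smaller H3K4me1 fold were mostly without other marks. The region in an intron of Vps13a, a lipid transfer protein gene (chr19:16625529-16625823), had folds of 7.86 in WT and 9.66 in Ep300Δ/Δ, and lay 227 bp from an Ep300Δ/ΔTet2-/- peak. A region in Ugcg, which encodes the ceramide glucosyltransferase (chr4:59193856-59194129), had 7.46 and 9.24. It also had H3K27ac in WT, Ep300Δ/Δ and Tet2-/- (6.74, 4.21 and 6.63) and H3K4me3 in all 4 lists (8.31, 6.25, 6.54 and 2.67), so it was marked without Tet2 by other measures. A region in Map2k4, a kinase of the JNK pathway (chr11:65740944-65741236), had 9.26 and 6.89. Of the other 7, near Picalm, Amer2, Zfp398, Smyd3, Hspd1, Rab10 and C1s2, only C1s2 had a further mark, an H3K27ac peak of 3.59 in WT. Even the strongest regions could be close to a Tet2-null peak, 120 bp away for the one in an exon of Zfp398.

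Lost regions were spread over the autosomes. They made up from 5.50% (chromosome 14) to 8.55% (chromosome 13) of the distal WT and Ep300Δ/Δ regions of each autosome, and 58.0% overlapped an intron only, 10.4% an exon and 31.6% no gene. The median distance to a transcript start was 10.1 kb. Within 10 kb of another lost region lay 424 of them, in 191 groups, of which 34 held 3 or more. No such count is given for other classes, so whether lost regions were grouped more than others is not known. The largest group held 6 regions over 14.1 kb in an intron of Ehd3, an endocytic recycling gene (chr17:73808362-73822506). Their WT folds ranged from 3.07 to 6.92 and their Ep300Δ/Δ folds from 3.25 to 5.61, with H3K27ac at 1, in WT. Of the 8 distal WT regions nearest Ehd3, 6 were lost, 2 were in WT alone and 0 were in all 4 lists, and the closest Tet2-null peak to any of the 6 was 2.98 kb away.

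The 2200 lost regions had 1659 different nearest coding genes, 18.1% of the 9164 genes with a distal WT region. Of these genes, 1267 had 1 lost region, 285 had 2 and 107 had 3 or more, while 1312 also had a region in all 4 lists and 528 a gained region. Most of these genes thus also had a distal region in every genotype. The same counts over all 9164 genes are not given, so nothing particular to these genes can be read from them. Gse1 had the most lost regions, 7 of 64, with 47 others in all 4 lists. Fig4, a phosphoinositide phosphatase gene, had 6 of 17, and Plcl2 had 6 of 55. Eif4g3, Mtss1, Ugcg, Gnaq and Jarid2 had 5 each, of 29, 31, 38, 49 and 70. Plpp1, a lipid phosphatase gene, had 4 of 5 with 0 in all 4 lists, and 19 genes had exactly 4.

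Among lists of blood genes, lost regions were nearest to 5 of 14 stem and early progenitor genes with a distal WT region (Myb, Meis1, Runx1, Hlf, Etv6). The same count was 3 of 9 B-lymphoid genes (Blnk, Bach2, Foxo1), 1 of 8 T-lymphoid genes (Ets1), 2 of 12 neutrophil and monocyte genes (Cebpa, Ltf) and 2 of 8 erythroid genes (Bcl11a, Ank1). It was 0 of 6 megakaryocyte genes, 0 of 9 mast cell, basophil and eosinophil genes and 2 of 8 DNA methylation genes (Tet2, Uhrf1). Over all genes with a distal WT region the share was 18.1%, which is 1659 of 9164. Both DNA methylation genes rest on peaks with q over 0.05, with a −log10 q of 0.508 in WT and 1.18 in Ep300Δ/Δ at Tet2 and of 0.717 in Ep300Δ/Δ at Uhrf1. Counted by regions, 7 of 395 distal WT regions near the stem and early progenitor genes were lost (1.77%), fewer than the 4.19% of all 52476 distal WT regions. Near B-lymphoid genes 7 of 100 were lost (7.0%) and near erythroid genes 6 of 92 (6.52%). The other lists were below 4.19%, with 1 of 64 for T-lymphoid genes (1.56%) and 2 of 93 for neutrophil and monocyte genes (2.15%). DNA methylation genes had 2 of 58 (3.45%), megakaryocyte genes 0 of 79, and mast cell, basophil and eosinophil genes 0 of 45. These shares rest on few regions, and no list was tested.

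At the progenitor genes, a region 26.8 kb from Hlf, a transcription factor gene of stem cells, had H3K4me1 folds of 6.28 in WT and 4.95 in Ep300Δ/Δ and 19 CpG sites, the most of the regions named here. It kept H3K4me3 in all 4 lists. A region in an intron of Etv6, an ETS repressor gene, had 4.17 and 5.79 and lay 72 bp from an Ep300Δ/ΔTet2-/- peak. Among B-lymphoid genes, a region in an intron of Blnk, the B-cell linker, had 5.09 and 6.04, with 6.46 kb to the nearest Tet2-null peak. The 3 highest regions near Foxo1 had 6.04 and 4.56, 3.86 and 3.90, and 3.11 and 4.35. Bcl11a, the repressor of fetal globin that is also needed for B cells, had 4 named regions in its introns, with WT folds from 2.45 to 3.86, all within 1.70 kb of a peak in each Tet2-null list. A region 11.4 kb from Cebpa, the granulocyte factor, had 4.84 and 4.68 and no other mark, with 7.36 kb to the nearest Tet2-null peak. A region in an intron of Ets1 had 6.03 and 5.83.

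The targeted genes were looked at for themselves. Tet2 (chr3:133463679-133545139, minus strand) overlapped 9 distal regions, of which 1 was lost, an intronic region with a weak fold of 2.71 in Ep300Δ/Δ and a lower one in WT. Ep300 (chr15:81585351-81652077, plus strand) overlapped 2, of which 0 were lost. Within 5 Mb of Tet2, 13 of 130 distal WT and Ep300Δ/Δ regions were lost (10.0%, interval 5.43 to 16.5), and within 5 Mb of Ep300 21 of 310 (6.77%, 4.24 to 10.2), both intervals including the 7.09% of all such regions. Peak lists do not show whether an allele was deleted. Uhrf1, which recruits the maintenance methyltransferase to replicated DNA, had 1 lost region in an intron, with folds of 3.62 and 2.39.

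CpG content at lost regions was close to that of distal regions in general. Within 100 bp on either side of the WT summit they held a mean of 3.05 ± 2.48 CpG sites (SD over 2200 regions) and a median of 3, against a mean of 2.97 ± 2.34 and the same median over 52476 distal regions with a WT peak. No CpG was present in 216 windows (9.82%, interval 8.61 to 11.1) and at least 5 in 450 (20.5%, 18.8 to 22.2). The GC content had a median of 51.2%, against 51.7%. Gained regions, centered on the Tet2-/- summit, held a mean of 2.75 ± 2.17.

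**Figure D5:**
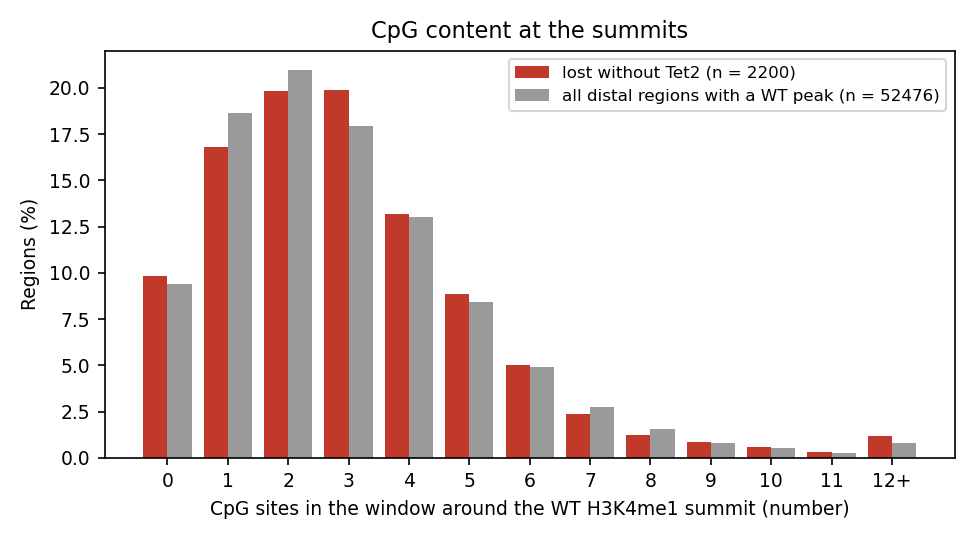
Share of regions (y axis, %) by the number of CpG sites within 100 bp on either side of the WT H3K4me1 summit (x axis, 12+ pools higher counts), for lost regions (red) and all distal regions with a WT peak (gray). Both had a median of 3, and 9.82% of lost regions had none.

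Of 10 short motifs searched on both strands in the same windows, GATA letters (AGATAA) showed the widest gap in percentage points. They were present in 222 lost regions (10.1%, interval 8.86 to 11.4), in 8.11% of the distal regions with a WT peak (7.88 to 8.35), in 7.51% of those in all 4 lists and in 8.31% of gained regions. Among the other distal WT and Ep300Δ/Δ regions of the weakest part by fold, where 1045 of the lost regions also fell, the share was 7.92% (7.28 to 8.59). Within 250 bp on either side of the summit it was 31.4% against 26.2% of the distal regions with a WT peak, and the lost regions with WT H3K27ac had 5.10% in the narrower window (8 of 157), below all lost regions. GATA factors direct erythroid, megakaryocyte and stem cell genes. In the narrower window the intervals of the other 9 motifs in lost regions included the share of the distal WT regions. The shares of the weakest part lay above these intervals for ETS (23.3%) and E-box (17.8%). ETS letters (GAGGAA) were in 463 lost regions (interval 19.4 to 22.8%) against 22.0%, RUNX letters (TGTGGT) in 18.4% against 18.7%, MYB (TAACNG) in 17.7% against 18.1% and E-box (CAGCTG) in 352 (14.5 to 17.6%) against 16.7%. C/EBP (TTGCNNAA) was in 7.36% against 7.37%, AP-1 (TGANTCA) in 5.73% against 6.36%, IRF (GAAANNGAA) in 4.05% against 4.58%, NF-kB (GGGANTTCC) in 0.909% against 0.842% and CTCF (AGNNGGCGC) in 0.727% against 0.854%. In the wider window ETS letters were in 45.0% of lost regions (42.9 to 47.1), below the 48.2% of distal regions with a WT peak and the 50.4% of the weakest part. AP-1 letters were there in 14.5% (13.1 to 16.0) against 16.1%. GATA was singled out of 10 motifs after its values were seen, and a match is a description of letters, not a bound site.

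H3K4me3 at lost regions did not follow the distance to a Tet2-null peak in 1 direction. Over 10 kb away, 24 of 268 had H3K4me3 in WT (8.96%, with a lower bound of 5.82) and 27 in Ep300Δ/Δ (10.1%, interval 6.74 to 14.3), against 11 in Tet2-/- (4.10%) and 15 in Ep300Δ/ΔTet2-/- (5.60%). Up to 500 bp away the shares were 5.54% (4.07 to 7.34), 4.92% (3.54 to 6.64), 4.31% and 3.94%, so the genotypes were closer together, and the intervals of the far and near regions overlapped in WT and did not overlap in Ep300Δ/Δ. The 1119 regions in between had the lowest shares, 3.57% (2.57 to 4.84), 3.04%, 1.97% and 1.97%. H3K27ac in WT was 9.10% up to 500 bp away, 5.27% in between and 8.96% over 10 kb away. The WT H3K4me1 medians were close, at 4.21, 4.01 and 4.12 in that order. The most distant lost region, 410 kb from a Tet2-null peak, lay between genes near Htr1b with folds of 5.12 and 4.04 and no other mark. A group of 4 lost regions lay near Nxpe4 (chr9:47893225-47903297), 114 to 124 kb from a Tet2-null peak, with WT folds of 3.93, 7.09, 4.70 and 4.77. These regions were named after their values were seen.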

How the data were processed

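Per the methods, the authors used cutadapt 1.15 for trimming, BWA 0.7.13 for alignment to mm10 and Picard for duplicates, and called narrow peaks with MACS2 2.1.1.20160309 against H3, with q under 0.05 stated, keeping peaks that overlapped between pseudo-replicates. The deposited files give for each peak a fold enrichment over H3 (a ratio) and the −log10 of its q, per list and without spike-in scaling, so neither was compared between lists as an amount. Peak lists give no read depth, and a longer list holds more weak peaks. Of 20 samples, the 12 with peak lists of H3K4me1, H3K27ac and H3K4me3 were used. The H3 and H3K27me3 samples were not analysed here.

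Overlapping H3K4me1 peaks of the 4 lists were merged, and presence needed an overlap of at least 1 bp. Transcript starts came from GENCODE release 21 for mouse (Ensembl release 96), on the same build, GRCm38. A region was given to the coding gene with the nearest start, and its fold was that of its strongest peak. The genes and regions named were the 10 lost regions with the highest smaller H3K4me1 fold, up to 10 with H3K27ac in WT and Ep300Δ/Δ only, the 10 genes with most lost regions, up to 4 regions per gene list, Tet2 and Ep300. Others are said to be chosen after their values were seen. Some of these regions, sequences and marker genes are not reported here. The members and lists were chosen with earlier results of these data known. Merging, presence and distances were tested on simulated data. Alternatives were other gaps, thresholds, list lengths, distances, starts and windows. Intervals came from scipy 1.17.1 and sequence from pysam 0.24.0, in Python 3.11.15.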

Additional observations from a re-analysis of the deposited data

How the results depend on the processing

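The number of lost regions was 2200 in the main setting and 1340 when peaks within 500 bp were merged, 603 with a −log10 q of at least 5 in all lists, 181 when only presence needed that q, and 1109 over 10000 bp from a start. It stayed between 1643 and 2834 under the 7 remaining alternatives. The share of lost regions with WT H3K27ac, 7.14%, was 14.4% when only presence needed that q, 2.50% with all lists cut to equal length, 4.87% with the upper part of each list by fold, and 2.32% with the H3K27ac and H3K4me3 lists alone cut to equal length. The share of these without H3K27ac in Tet2-/-, 76.4%, was 61.7% with a −log10 q of at least 5 in all lists and 62.7% with the H3K27ac and H3K4me3 lists alone cut to equal length. The median of 3 CpG sites was 6 within 250 bp on either side, a wider window, and 3 under every other alternative. Why these values moved was not tested. The alternatives with H3K27ac and H3K4me3 lists of equal length and with q of at most 0.05, which left 2028 lost regions, were chosen after seeing the data. By the nearest start of any gene, 3 stem and early progenitor genes and 0 T-lymphoid or neutrophil and monocyte genes had a lost region. No paired analysis was possible because each group has 1 library, and for the same reason no replicate could be left out. Peak lists give no depth, so a peak just under the threshold could not be told from an absent one.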
